A study of Mus musculus with 78 samples.

Results

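Aplnr, Apln, Cxcr4 and Cxcl12 form a pair of receptor and ligand systems that guide migrating cells, and all 4 were measured among the 22563 genes shared by 3 expression tables of early mouse embryos. The genes were picked because ligand and receptor lie in different tissues at E7.5, so their levels at E7.5 are given as a description, with no test. The series held 78 samples, of which 30 RNA-seq libraries were used, in 15 groups of 2. Every embryo was the offspring of C57BL/6N mothers and DBA/2N fathers, with no mutation or transgene named for these groups. Embryos grown in the uterus gave 11 groups: inner cell mass (ICM) and trophectoderm (TE) at E3.5, ICM at E4.0, epiblast (Epi) and visceral endoderm (VE) at E5.5 and at E6.5, and ectoderm (Ect), primitive streak (PS), mesoderm (Mes) and endoderm (End) at E7.5. Embryos taken at E4.5 and cultured with fetal bovine serum gave the other 4: epiblast and visceral endoderm separated after 4 days, and libraries labelled whole embryo after 1 and 2 days, whose protocol describes isolated inner cell mass. The protocol gives E4.5 as the start of all cultures, while the column names of the 1-day and 2-day libraries read E4.0. Each culture set came in a table of its own, so values were compared only within a table. The E3.5, E4.0 and cultured embryos came from superovulated mothers and their cells were lysed directly, or after enzyme digestion and dissection for the 4-day tissues. The E5.5 to E7.5 tissues came from natural matings and a column kit.

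Cxcl12 is a secreted chemokine, and Cxcr4 is the G protein coupled receptor through which it steers cells, among them germ cells, blood cell precursors and endoderm cells. A further receptor, Cxcr7 (now Ackr3), binds Cxcl12 and removes it without the usual G protein signal. Apelin, encoded by Apln, is a secreted peptide, and Aplnr is its G protein coupled receptor, known for its part in the movement of mesoderm and heart precursors during gastrulation and in vessel growth. A further Aplnr ligand, the peptide encoded by Apela, was not analysed here. In bulk tissue, fewer cells of a type and less RNA per cell cannot be told apart.

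Levels are given in FPKM, fragments scaled to transcript length and to library size, a unit that allows levels of different genes to be compared per length. The number of reads behind a value is unknown, because FPKM carry no counts. Differences are on the scale log2(FPKM+1), which understates the change of low genes. A gene was called changed where limma gave a Benjamini-Hochberg adjusted p under 0.05 over 13493 genes and a log2 difference of at least 1 in size. All 4 genes passed the filter on low values (at least 1 FPKM in at least 2 libraries). No label says that libraries of a group came from separate litters, so p-values measure only the spread between these samples, which may be technical.

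Replicates correlated from 0.898 (embryos cultured for 2 days) to 0.994 (E7.5 mesoderm) across genes. The E7.5 labels were checked against marker genes fixed for each tissue. Ectoderm held Otx2, a forebrain and epiblast gene, at 84.8 and 52.1 FPKM, while Sox1, an early neural gene, stayed at 0.350 and 0.213 FPKM. Primitive streak held the streak gene T at 302 and 325 FPKM, and all 8 streak markers reached 1 FPKM in both libraries. Eomes, of the same list, stood at only 1.41 and 3.77 FPKM there, below E6.5 epiblast at 9.03 and 13.2 FPKM. Mesoderm held Mesp1, a gene of nascent mesoderm, at 48.5 and 49.5 FPKM. The 10 mesoderm markers summed to 466 and 439 FPKM in mesoderm and to 209 and 307 FPKM in streak. Among them Tbx6 was higher in streak, at 104 and 97.2 FPKM, than in mesoderm, at 19.9 and 25.8 FPKM. Endoderm carried the 8 visceral endoderm markers at a summed 7543 and 6910 FPKM. It also carried the 9 markers of definitive endoderm and node at a summed 1385 and 1357 FPKM, more than any other group, with Trh at 860 and 885, Foxa2 at 40.8 and 31.4, Sox17 at 1.95 and 1.84 and Nkx2-3 at 0 FPKM. The libraries labelled endoderm thus held genes of both lists, but not every gene tells the kinds of endoderm apart. E6.5 visceral endoderm held Foxa2 at 51.4 and 50.2 FPKM and Sox17 at 1.90 and 2.12 FPKM. Cer1 stood at 423 and 453 FPKM there and at 426 and 398 FPKM in E7.5 endoderm. Trh, at 37.4 and 35.7 FPKM, was lower in E6.5 visceral endoderm. So was Noto, at 0.510 and 0.585 FPKM against 34.6 and 23.8 FPKM in E7.5 endoderm. The 2 ectoderm libraries differed in T, at 14.7 and 2.51 FPKM, and the 2 E6.5 visceral endoderm libraries differed in the epiblast gene Pou5f1, at 20.9 and 2.10 FPKM.

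The promoter of Cxcl12 and that of its receptor Cxcr4 are shown because the transcripts lay in opposite tissues, and the promoter of Apln is shown as the other ligand. Each line gives the 250 bases before the transcription start from RefSeq (GRCm38.p6), 5′ to 3′ on the gene's strand, with CpG dinucleotides in capitals. The windows are chr6:117168285-117168534 on the plus strand for Cxcl12, chr1:128592300-128592549 on the minus strand for Cxcr4 and chrX:48034854-48035103 on the minus strand for Apln. Table entries matched 3 of the 4 genes, and Aplnr had none.
Cxcl12: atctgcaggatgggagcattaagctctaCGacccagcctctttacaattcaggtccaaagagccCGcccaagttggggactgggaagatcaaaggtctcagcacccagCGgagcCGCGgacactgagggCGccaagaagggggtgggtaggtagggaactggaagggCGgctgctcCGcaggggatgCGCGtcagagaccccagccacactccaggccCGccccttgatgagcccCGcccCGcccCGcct
Cxcr4: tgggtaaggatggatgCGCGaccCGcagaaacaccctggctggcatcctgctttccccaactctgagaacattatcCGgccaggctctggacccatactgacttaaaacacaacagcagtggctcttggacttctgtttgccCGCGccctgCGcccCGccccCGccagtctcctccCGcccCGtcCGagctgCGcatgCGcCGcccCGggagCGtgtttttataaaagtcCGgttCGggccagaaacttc
Apln: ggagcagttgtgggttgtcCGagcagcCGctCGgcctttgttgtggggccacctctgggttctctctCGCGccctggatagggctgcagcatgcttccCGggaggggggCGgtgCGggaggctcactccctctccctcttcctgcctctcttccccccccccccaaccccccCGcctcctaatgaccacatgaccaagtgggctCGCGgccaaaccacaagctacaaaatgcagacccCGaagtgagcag
The Cxcr4 window held 19 CpGs, the Cxcl12 window 14 and the Apln window 12, against a median of 6 over 32536 promoter windows of this length. Of all windows, 80.1% held fewer CpGs than Cxcr4, 70.4% fewer than Cxcl12 and 66.3% fewer than Apln. The letters TATAAA, searched on both strands, occurred in the Cxcr4 window and not in the other 2, and 12.3% of all windows held them. The letters GGGCGG, searched on both strands, occurred in all 3 windows and in 33% of all windows. The letters TCACACC, searched on both strands, occurred in none of the 3 and in 3.33% of all windows. A match describes these letters only.

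Before implantation the 4 genes were near or at 0. In E3.5 inner cell mass, E3.5 trophectoderm and E4.0 inner cell mass, Aplnr and Cxcr4 were listed at 0 in all 6 libraries. Apln was listed at 0 in 5 of them, with 0.0608 FPKM in E4.0 replicate 1. Cxcl12 reached 0.0359 FPKM in 1 inner cell mass library and 0.0251 FPKM in 1 trophectoderm library of E3.5. Between E3.5 inner cell mass and trophectoderm limma called 0 of the 4 genes, against 17.3% of all genes tested, and 0 had an unadjusted p under 0.05. Between the inner cell mass of E4.0 and E3.5 it likewise called 0, against 20.6%, with 0 under an unadjusted p of 0.05. Cxcr7 was already present in the inner cell mass at these stages, at 1.36 and 1.83 FPKM at E3.5 and at 3.32 and 2.51 FPKM at E4.0, with 0.0943 and 0 FPKM in trophectoderm.

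**Figure D1:**
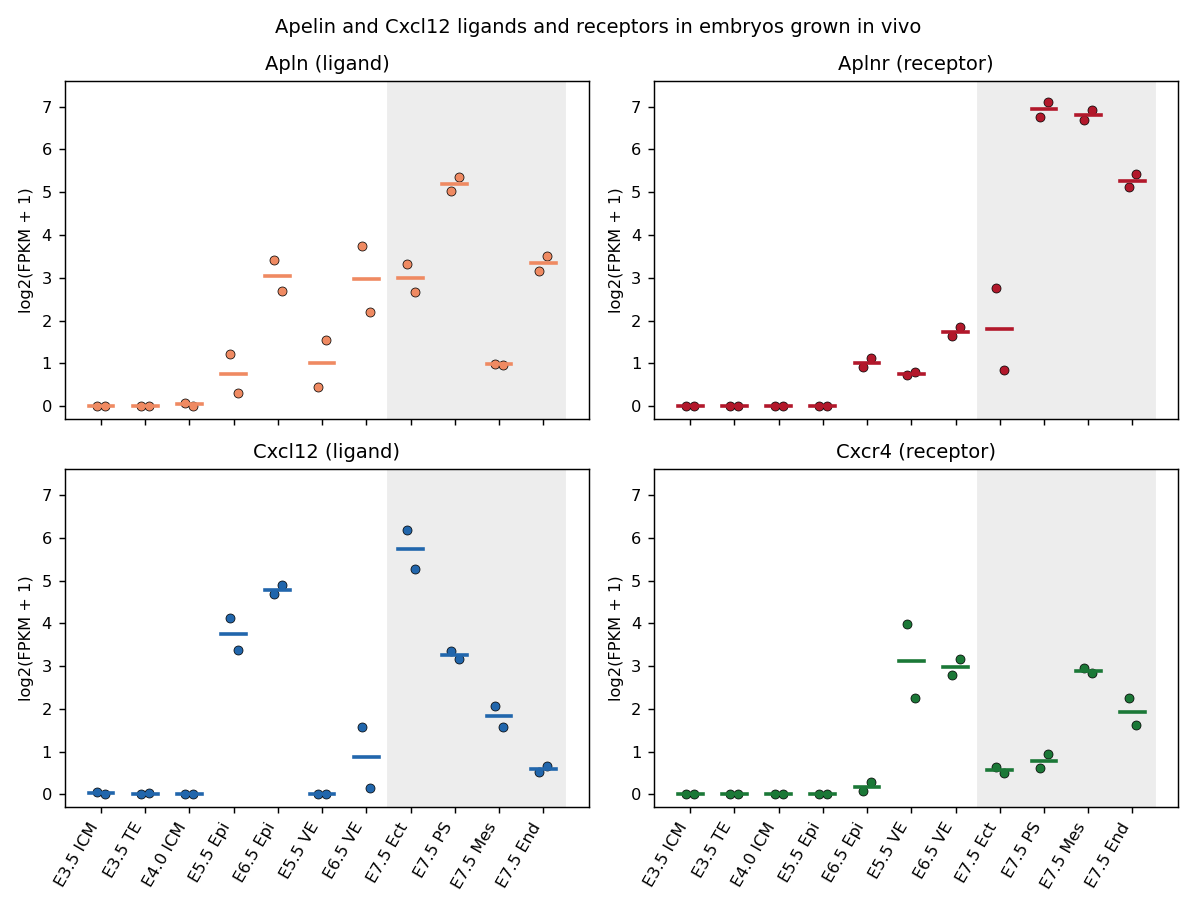
Levels of the 2 ligands and 2 receptors in each library of the 11 groups grown in vivo, as log2(FPKM+1); points are libraries, bars their mean, and the shaded part holds the E7.5 tissues. Cxcl12 sits high in epiblast and ectoderm where Cxcr4 is near 0, Cxcr4 sits high in visceral endoderm and mesoderm, and Aplnr is above 30 FPKM in the E7.5 streak, mesoderm and endoderm libraries.

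After implantation the ligand Cxcl12 appeared in the epiblast. E5.5 epiblast held 16.3 and 9.46 FPKM, against 0 in both E5.5 visceral endoderm libraries. E6.5 epiblast held 24.5 and 28.7 FPKM, against 1.98 and 0.113 FPKM in visceral endoderm. The tissues did not overlap at either age. In limma, Cxcl12 was called higher in epiblast at E5.5 (adjusted p = 7.91e-07, with visceral endoderm listed at 0, so that no fold is given). At E6.5 it was called higher by 3.92 ± 0.40 (log2, SE, adjusted p = 4.39e-07). The same gene was called higher in E5.5 epiblast than in E4.0 inner cell mass, where it was listed at 0 (adjusted p = 1.01e-06), as 1 of the 4 genes called there, against 17.6% of all genes. That last comparison crosses the change of mating and RNA extraction, which cannot be told apart from age.

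The receptor Cxcr4 lay on the other side. E5.5 visceral endoderm held 14.8 and 3.77 FPKM, and E5.5 epiblast was listed at 0 in both libraries. E6.5 visceral endoderm held 5.93 and 7.97 FPKM, against 0.0589 and 0.218 FPKM in epiblast. Again no library of one tissue reached the other. Cxcr4 was called lower in epiblast at E5.5 (limma adjusted p = 4.15e-06, epiblast listed at 0) and at E6.5, by -2.80 ± 0.39 (log2, SE, adjusted p = 1.93e-05). It was also called higher in E5.5 visceral endoderm than in E4.0 inner cell mass, where it was listed at 0 (adjusted p = 3.43e-06), as 1 of the 4 genes called, against 35.4% of all genes, across the same change of extraction. The 2 E5.5 visceral endoderm libraries, which were furthest apart in Cxcr4, also differed in Cer1, a gene of anterior visceral endoderm, at 114 and 35.5 FPKM. The part of Cer1-positive cells in the spread of Cxcr4 was not tested.

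Thus 2 of the 4 genes, Cxcl12 and Cxcr4, were called between epiblast and visceral endoderm at E5.5, where 36.7% of all genes tested were called. The same 2 were called at E6.5, where 16.5% of all genes were. By direction, 27.1% of genes were called higher in epiblast at E5.5 and 9.60% lower, and at E6.5 6.95% higher and 9.58% lower. The median difference over all genes at E5.5 was 0.36, and 0.04 with quantile normalization. A count of 2 in 4 is near the share of all genes at E5.5 and above it at E6.5. With only 4 genes, picked by their levels at E7.5, no conclusion is drawn from this. The 4 calls of Cxcl12 and Cxcr4 at E5.5 and E6.5 held in each of their 11 alternative analyses. In a test of whether the epiblast minus visceral endoderm difference itself changed from E5.5 to E6.5, added after seeing the data, 0 of the 4 genes were called, against 6.07% of all genes, and 0 had an unadjusted p under 0.05. For Cxcl12 the change of the difference was 0.17 (log2, 95% interval -1.01 to 1.35), and for Cxcr4 it was 0.32 (-0.82 to 1.46), intervals that both hold changes of more than 1. Over all genes the median of this change was -0.41, and -0.04 with quantile normalization.

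The scavenging receptor Cxcr7 lay on the same side as Cxcr4. Cxcr7 stood at 7.22 and 4.66 FPKM in E5.5 visceral endoderm, against 0.991 and 0.382 FPKM in epiblast. At E6.5 it stood at 15.3 and 18.1 FPKM in visceral endoderm and at 0.671 and 0.652 FPKM in epiblast. limma called it lower in epiblast at E5.5 (-2.04 ± 0.49, log2, SE, adjusted p = 0.00210) and at E6.5 (-3.41 ± 0.49, adjusted p = 2.80e-05). Within visceral endoderm, Cxcr7 was 1.37 ± 0.49 higher at E6.5 than at E5.5 (adjusted p = 0.0373), a call kept in 4 of 11 alternatives and lost when any of the 4 libraries was left out. Every tissue grown in vivo that held Cxcr4 above 1 FPKM also held Cxcr7 above 1 FPKM. Cxcr7 was the more widespread, however. It also averaged above 1 FPKM in the inner cell mass of E3.5 (1.59) and E4.0 (2.92) and in E7.5 ectoderm (3.20) and streak (1.18). Cxcr4 averaged below 1 FPKM in each of those groups.

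Epiblast and visceral endoderm separated after 4 days of culture gave a table of their own. Cxcl12 stood at 7.08 and 12.1 FPKM in cultured epiblast and at 0.210 and 0 FPKM in cultured visceral endoderm, with no overlap. It was called higher in epiblast by 3.23 ± 0.40 (log2, SE, limma adjusted p = 4.34e-06), and 24.5% of all genes were called in this comparison. Cxcl12 was the 1 of the 4 genes called. Cxcr4 was listed at 0 in both cultured epiblast libraries and stood at 1.20 and 0 FPKM in cultured visceral endoderm, a difference of -0.57 with a 95% interval from -1.38 to 0.24 (adjusted p = 0.297). The cultured visceral endoderm libraries overlapped the epiblast for Cxcr4, unlike those grown in vivo. Cxcr7 stood at 10.3 and 1.16 FPKM in cultured visceral endoderm and at 0.125 and 0.327 FPKM in cultured epiblast, and was called lower in epiblast (-2.01 ± 0.49, adjusted p = 0.00374), a call kept in 8 of 11 alternatives and lost without visceral endoderm replicate 1 and in the fits on only these groups or only this table. The 2 cultured visceral endoderm libraries differed throughout these genes, and also in Cer1, at 17.5 and 0.415 FPKM, in Pdgfra, at 2.47 and 15.5 FPKM, and in the summed visceral endoderm markers, at 3743 and 1889 FPKM. The part of these differences in the receptor levels was not tested.

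**Figure D2:**
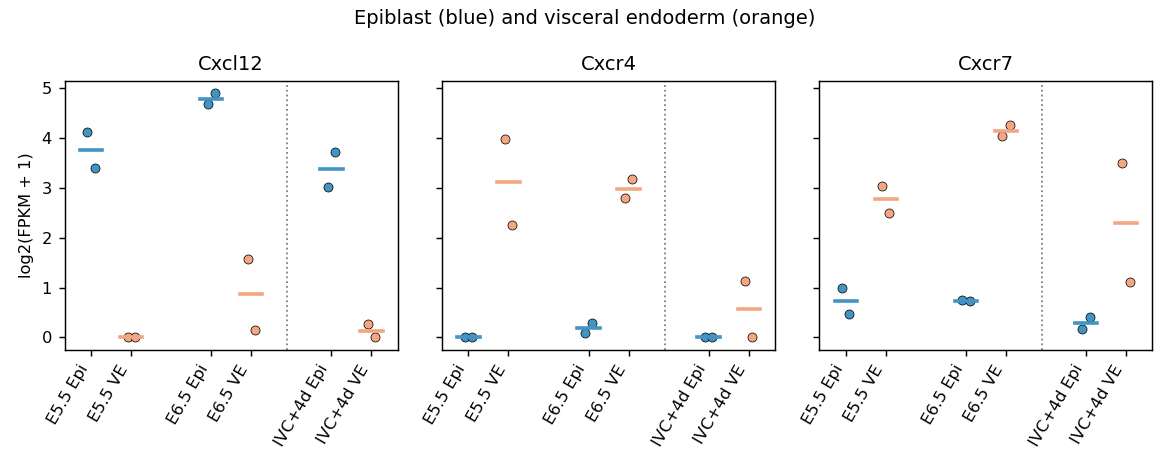
Cxcl12, its receptor Cxcr4 and the scavenging receptor Cxcr7 in epiblast (blue) and visceral endoderm (orange) as log2(FPKM+1); points are libraries, bars their mean, and the dotted line separates the table of embryos cultured for 4 days. Cxcl12 is higher in epiblast at E5.5, at E6.5 and in culture, while Cxcr4 and Cxcr7 are higher in visceral endoderm at E5.5 and E6.5 and spread widely in cultured visceral endoderm.

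In whole embryos cultured for 1 or 2 days the 4 genes were low. Aplnr and Cxcr4 did not exceed 0.0248 FPKM in any of the 4 libraries. Cxcl12 reached 0.495 FPKM in 1 library of day 1, and Apln reached 1.28 FPKM in 1 library of day 2. Between the days limma called 0 of 4 genes, against 6.46% of all genes, with 0 under an unadjusted p of 0.05. These libraries held trophoblast markers at a summed 498 to 1844 FPKM.

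At E7.5 the Cxcl12 ligand was found mainly in ectoderm and Cxcr4 mainly in mesoderm and endoderm. Cxcl12 stood at 71.9 and 37.8 FPKM in ectoderm, 9.23 and 8.03 in primitive streak, 3.21 and 1.98 in mesoderm, and 0.433 and 0.576 in endoderm. No tissue overlapped the next in this order. Cxcr4 stood at 6.71 and 6.13 FPKM in mesoderm, 3.78 and 2.07 in endoderm, 0.539 and 0.924 in primitive streak, and 0.563 and 0.422 in ectoderm. Mesoderm and endoderm were each above the other tissues, while streak and ectoderm overlapped. On the log2 scale ectoderm was above the mean of the other 3 tissues by 3.84 for Cxcl12 and below it by -1.30 for Cxcr4. Mesoderm was above the mean of the others by 1.79 for Cxcr4 and below by -1.37 for Cxcl12.

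Cxcr7 was less restricted at E7.5 than Cxcr4. It stood at 6.67 and 6.95 FPKM in mesoderm, 7.73 and 4.60 in endoderm, 4.39 and 2.00 in ectoderm, and 1.49 and 0.868 in primitive streak. limma called it lower in streak than in the mean of the other tissues (-1.49 ± 0.40, log2, SE, adjusted p = 0.0322), a call kept in 7 of 15 alternatives. The call was lost when either streak library, either mesoderm library, ectoderm replicate 1 or endoderm replicate 1 was left out.

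Over the 11 groups in vivo the order of mean Cxcl12 levels ran from E7.5 ectoderm (54.9 FPKM) through E6.5 epiblast (26.6), E5.5 epiblast (12.9) and E7.5 primitive streak (8.63). Neighbours in this stretch did not overlap. Below them E7.5 mesoderm (2.59) overlapped E6.5 visceral endoderm (1.05), which overlapped E7.5 endoderm (0.504). For Cxcr4 the highest 3 groups were E5.5 visceral endoderm (9.27 FPKM), E6.5 visceral endoderm (6.95) and E7.5 mesoderm (6.42), and their libraries overlapped. They were followed by E7.5 endoderm (2.93), which stood above streak and ectoderm.

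The apelin ligand was shared between epiblast and visceral endoderm. Apln stood at 1.32 and 0.235 FPKM in E5.5 epiblast and at 0.376 and 1.91 FPKM in E5.5 visceral endoderm. At E6.5 it stood at 9.64 and 5.48 FPKM in epiblast and at 12.3 and 3.58 FPKM in visceral endoderm. The tissues overlapped at both ages. The epiblast minus visceral endoderm difference was -0.24 at E5.5 (95% interval -1.79 to 1.31, limma adjusted p = 0.842) and 0.09 at E6.5 (-1.46 to 1.64, adjusted p = 0.978), intervals wide enough to hold a difference above 1 in either direction.

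From E5.5 to E6.5, Apln in visceral endoderm was 1.97 ± 0.74 higher (log2, SE, limma adjusted p = 0.0490), beside 24.7% of all genes called higher and a median shift of 0.50 over all genes. It was the 1 of the 4 genes called in visceral endoderm between these ages, where 27.2% of all genes were. This call sat at the threshold and was kept in 4 of 11 alternatives. Without E6.5 visceral endoderm replicate 1 the difference was 1.20 (adjusted p = 0.371), and without E5.5 visceral endoderm replicate 1 it was 1.43 (adjusted p = 0.318). E6.5 visceral endoderm replicate 1, the higher in Apln and in Cxcl12, held the summed markers of inner cell mass and epiblast at 49.6 FPKM, against 12.5 FPKM in replicate 2. The part of these markers' cells in the result was not tested. In epiblast the corresponding difference of Apln was 2.30 ± 0.74 with no overlap of libraries (adjusted p = 0.206), and limma called 0 of the 4 genes between the epiblasts of E6.5 and E5.5, against 0.978% of all genes. At an unadjusted p under 0.05 there were 3 of 4, and Apln passed the adjusted threshold where only the libraries of the in vivo table were fitted (adjusted p = 0.00744).

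The receptor Aplnr was low up to E6.5. It was listed at 0 in both E5.5 epiblast libraries and stood at 0.659 and 0.735 FPKM in E5.5 visceral endoderm. At E6.5 it stood at 0.894 and 1.17 FPKM in epiblast and at 2.10 and 2.60 FPKM in visceral endoderm. The tissues did not overlap at either age, yet limma did not call Aplnr between them, with a difference of -0.76 at E5.5 (95% interval -1.57 to 0.04, adjusted p = 0.119) and of -0.72 at E6.5 (-1.52 to 0.08, adjusted p = 0.221). Between the ages, Aplnr in visceral endoderm differed by 0.98 ± 0.39 (adjusted p = 0.0585). With a pseudocount of 0.1 Aplnr was called at E5.5 (-2.99, adjusted p = 0.00202).

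At E7.5 Aplnr was the most abundant of the 4 genes in 3 of the 4 tissues. It stood at 108 and 138 FPKM in primitive streak, 103 and 120 in mesoderm and 34.0 and 41.8 in endoderm. Ectoderm held 5.77 and 0.811 FPKM, below the other tissues. Streak and mesoderm overlapped, and endoderm stood between them and ectoderm. Ectoderm was below the mean of the other 3 tissues by -4.53 on the log2 scale, and by between -5.49 and -3.58 with either ectoderm library left out. Ectoderm replicate 1, the higher in Aplnr, held the summed streak markers at 27.7 FPKM and the summed mesoderm markers at 40.7 FPKM, and in replicate 2 the mesoderm markers summed to 17.4 FPKM. The endoderm libraries with Aplnr held T at 47.9 and 45.7 FPKM and Tbx6, a gene of streak and mesoderm, at 5.02 and 5.60 FPKM. The part of streak or mesoderm cells in these levels was not tested.

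Apln at E7.5 peaked in primitive streak, beside its receptor, and was low in mesoderm. It stood at 31.8 and 40.1 FPKM in streak, 7.91 and 10.5 in endoderm, 8.99 and 5.41 in ectoderm, and 0.994 and 0.938 in mesoderm. Streak stood above every other group grown in vivo, endoderm and ectoderm overlapped, and mesoderm stood below the other E7.5 tissues. Mesoderm was below streak by -4.22 for Apln and by -0.14 for Aplnr on the log2 scale. Streak and endoderm held both ligand and receptor above 7 FPKM in each library, and ectoderm replicate 1 also held both above 5 FPKM.

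After 4 days of culture both apelin genes were low but for 1 library. Apln stood at 0.0776 and 0.811 FPKM in cultured epiblast and at 0.0595 and 11.8 FPKM in cultured visceral endoderm. The second visceral endoderm library stood alone, and limma did not call the gene (-1.40, 95% interval -2.95 to 0.15, adjusted p = 0.170), while without visceral endoderm replicate 1 the call was made (-3.20, adjusted p = 0.000675). Aplnr did not exceed 0.364 FPKM in any of these 4 libraries.

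The level of ligand minus that of receptor within each library, on the log2(FPKM+1) scale, shows which transcript of each pair was the higher. Cxcl12 minus Cxcr4 lay between 3.39 and 4.61 in the 4 epiblast libraries of E5.5 and E6.5, between 4.77 and 5.54 in ectoderm and between 2.23 and 2.73 in streak. It lay between -3.98 and -1.22 in the 4 visceral endoderm libraries, at -0.87 and -1.26 in mesoderm and at -1.74 and -0.96 in endoderm. Apln minus Aplnr lay at 2.49 and 1.58 in E6.5 epiblast, at 0.56 and 1.82 in ectoderm, at -1.73 and -1.76 in streak, at -5.70 and -5.96 in mesoderm and at -1.97 and -1.90 in endoderm. In streak Cxcl12 stood above Cxcr4 and Apln stood below Aplnr, though streak also held the highest Apln of the groups grown in vivo. In mesoderm both ligands stood below their receptors.

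**Figure D3:**
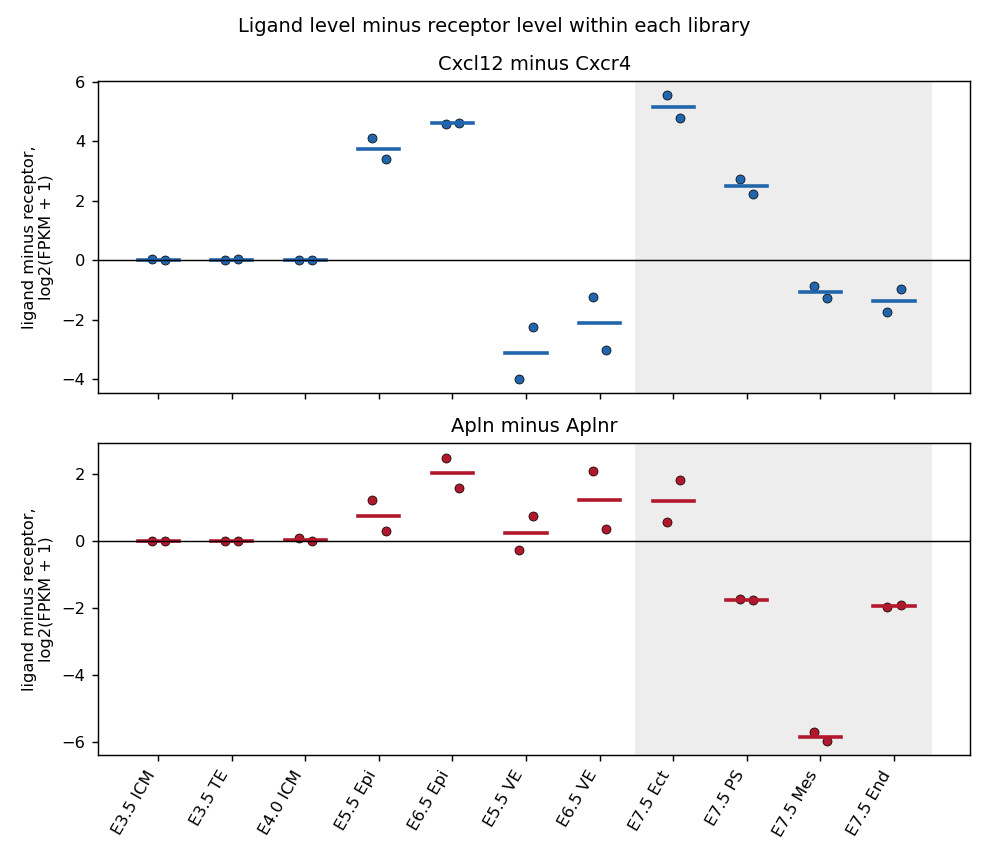
Ligand minus receptor within each library grown in vivo, as the difference of log2(FPKM+1) values; points are libraries, bars their mean, the line marks equal levels and the shaded part holds the E7.5 tissues. Cxcl12 minus Cxcr4 is above 2 in epiblast, ectoderm and streak and below 0 in visceral endoderm, mesoderm and endoderm, and Apln minus Aplnr falls from above 0 in ectoderm to -5.70 and -5.96 in mesoderm.

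Over the 11 group means the members were not copies of each other. As a description, Pearson's r of log2(FPKM+1) was 0.62 for Aplnr and Apln and -0.28 for Cxcl12 and Cxcr4, with all points from 1 table. Spearman's rho was 0.81 for Aplnr and Apln and -0.007 for Cxcl12 and Cxcr4. Several groups stood at or near 0 in these genes. Among 6784 genes reaching 10 FPKM, those most like Aplnr over the 11 groups were Wnt5a (r = 0.98), Mmd (0.96), Rasgrp3 (0.95), Dll1 (0.95) and Tbx6 (0.95). Those most like Apln were Gabarapl1 (0.90), Prickle1 (0.90), Sp8 (0.89), Ggh (0.88) and Mgst1 (0.88). Those most like Cxcl12 were Mtap7d3 (0.98), Syt11, Camkv, Gng3 and Ndrg2 (0.97 each). Those most like Cxcr4 were Bmp2 (0.96) and Pkdcc, Ptgds, Prdm6 and Igf2 (0.94 each). By Spearman's rho over the same means, 0, 1, 0 and 0 of these 5 genes recurred among the 5 most like Aplnr, Apln, Cxcl12 and Cxcr4.

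Of 11 genes listed as partners of Cxcl12 or of its receptors, besides the members, 9 were tested. In epiblast against visceral endoderm, 3 were called higher and 2 lower at E5.5 (27.1% and 9.60% over all genes), 1 and 3 at E6.5 (6.95% and 9.58%), and 2 and 3 after 4 days of culture (10.8% and 13.6%). Dpp4, a protease that inactivates Cxcl12 by trimming its start, stood at a mean of 0.455 FPKM in E6.5 epiblast and 97.9 FPKM in E6.5 visceral endoderm (log2 -6.08 ± 0.39, SE, limma adjusted p = 6.08e-10). It was called lower in epiblast also at E5.5 (-3.82) and in culture (-5.24). At E7.5 Dpp4 stood at a mean of 90.4 FPKM in endoderm, and the other 6 libraries did not exceed 0.179 FPKM (log2 6.38 ± 0.32, adjusted p = 3.11e-12). Mmp2, a matrix protease that can also cut Cxcl12, went the other way, with 8.77 FPKM in E6.5 epiblast and 0.303 FPKM in visceral endoderm (2.94 ± 0.63, adjusted p = 0.00187). Sdc4, a heparan sulfate carrier on the cell surface, was called higher in E7.5 endoderm than in the mean of the other tissues (52.2 against 9.01 FPKM, log2 2.54 ± 0.35, adjusted p = 1.39e-05).

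Of 6 genes that process apelin or act beside its receptor, 4 were tested. At E6.5, 0 were called higher and 1 lower in epiblast than in visceral endoderm (6.95% and 9.58% over all genes). Mme, the protease neprilysin, which degrades apelin, stood at 34.9 FPKM in E4.0 inner cell mass and 2.34 FPKM in that of E3.5 (log2 3.43 ± 0.40, SE, limma adjusted p = 3.17e-06), when Apln itself was at or near 0. Furin, a protease that matures many secreted precursors, was called higher in E7.5 endoderm (5.01 FPKM, log2 1.31 ± 0.39, adjusted p = 0.0224), a call lost when either endoderm library was left out and with a pseudocount of 0.1.

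Of 26 genes that carry the signal of G protein coupled receptors into the cell, 25 were tested. At E6.5, 2 were called higher in epiblast and 2 lower (6.95% and 9.58% over all genes), at E5.5 5 and 5 (27.1% and 9.60%), and in culture 2 and 4 (10.8% and 13.6%). At E6.5 these counts were near the shares over all genes. The higher genes at E6.5 were the arrestins Arrb1 (8.84 against 0.437 FPKM, log2 2.78 ± 0.32, SE, limma adjusted p = 2.23e-06) and Arrb2 (12.3 against 1.57 FPKM, 2.38 ± 0.50, adjusted p = 0.00154), which end receptor signalling at the membrane. Gng12, a G protein gamma subunit, was lower in epiblast (2.32 against 35.7 FPKM, -3.46 ± 0.38, adjusted p = 1.08e-06), and at E7.5 it was called higher in endoderm (37.9 against 5.58 FPKM, 2.71 ± 0.31, adjusted p = 1.05e-06). Gnai2, an inhibitory alpha subunit used by both receptors, stood at 149 FPKM in E6.5 epiblast and 31.8 FPKM in E5.5 epiblast (2.13 ± 0.43, adjusted p = 0.0141), a call lost without E5.5 epiblast replicate 2, without E6.5 epiblast replicate 1 and in the fit on only the groups compared.

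The other chemokines and their receptors were mostly silent. Of 43 genes listed, 40 were matched and 8 passed the filter on low values. At E7.5, Cx3cl1, a membrane-bound chemokine, was called higher in endoderm (7.55 against 2.11 FPKM, log2 1.54 ± 0.23, SE, limma adjusted p = 4.75e-05). In culture, Ccl25, a chemokine of thymus and gut, was called lower in epiblast than in visceral endoderm (1.89 against 8.36 FPKM, -1.72 ± 0.43, adjusted p = 0.00522), a call lost without epiblast replicate 1 and with a pseudocount of 0.1.

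Other receptors and ligands of cell migration, 35 genes of which 29 were tested, were called lower in epiblast and in ectoderm more than higher. Between epiblast and visceral endoderm 1 was called higher and 9 lower in epiblast at E5.5 (27.1% and 9.60% over all genes), 0 and 10 at E6.5 (6.95% and 9.58%), and 1 and 13 in culture, with background shares of 10.8% and 13.6%. At E7.5 0 were called higher and 10 lower in ectoderm than in the mean of the other tissues, where 0.912% and 4.37% of all genes were. A gene can be called lower against this mean because 1 other tissue is high. Kdr, high in mesoderm, was called lower in both ectoderm and streak, so these counts are not particular to ectoderm. In mesoderm 6 were called higher and 1 lower, where 1.93% and 2.78% of all genes were. In endoderm 5 and 1 were called, where 10.3% and 1.93% of all genes were, and in streak 1 and 3, where 1.42% and 1.61% were. The median log2 difference of the 29 genes was -0.66 in ectoderm and 0.61 in mesoderm, against -0.21 and 0.05 over all genes.

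The genes called higher in mesoderm included 3 receptors and 1 matrix protein. Kdr, the VEGF receptor of vessel precursors, stood at 17.3 and 16.6 FPKM in mesoderm and did not exceed 1.28 FPKM in the other 6 libraries (log2 3.58 ± 0.13, SE, limma adjusted p = 9.91e-14). Nrp1, a co-receptor of VEGF and semaphorins, stood at a mean of 26.4 FPKM in mesoderm and 4.38 FPKM in the others (3.34 ± 0.35, adjusted p = 7.27e-07). Nrp1 was also called higher in endoderm, at 12.6 and 12.8 FPKM (2.01 ± 0.35, limma adjusted p = 0.000204). Pdgfra, a PDGF receptor needed by migrating mesoderm, stood at 27.2 against 4.91 FPKM (2.62 ± 0.40, adjusted p = 0.000136). Fn1, the fibronectin that mesoderm crawls on, stood at 65.6 against 18.1 FPKM (2.20 ± 0.42, adjusted p = 0.00134), a call lost without mesoderm replicate 1 and with a pseudocount of 0.1. In endoderm, Kitl, the ligand of the receptor Kit, stood at 17.8 against 4.05 FPKM (2.28 ± 0.36, adjusted p = 7.18e-05), and in streak Epha2, an ephrin receptor, at 8.22 against 2.32 FPKM (1.77 ± 0.34, adjusted p = 0.00257), lost without streak replicate 2. Epha2 was also called higher in endoderm, at 5.59 and 5.26 FPKM.

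Over the 5 lists, 75 of 121 genes were tested and 23 were called in at least 1 E7.5 tissue. Ectoderm had 1 higher and 15 lower (0.912% and 4.37% over all genes). Dpp4, high in endoderm alone, counts as lower in ectoderm, streak and mesoderm alike. The 1 higher gene was Mif, a cytokine that also binds Cxcr4, at 1049 and 3621 FPKM in ectoderm against a mean of 744 FPKM in the others (1.40 ± 0.36, limma adjusted p = 0.0181), a call lost without ectoderm replicate 2 and with quantile normalization. Streak had 3 higher and 6 lower (1.42% and 1.61% over all genes), mesoderm 7 and 3 (1.93% and 2.78%), and endoderm 12 and 2 (10.3% and 1.93%).

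**Figure D4:**
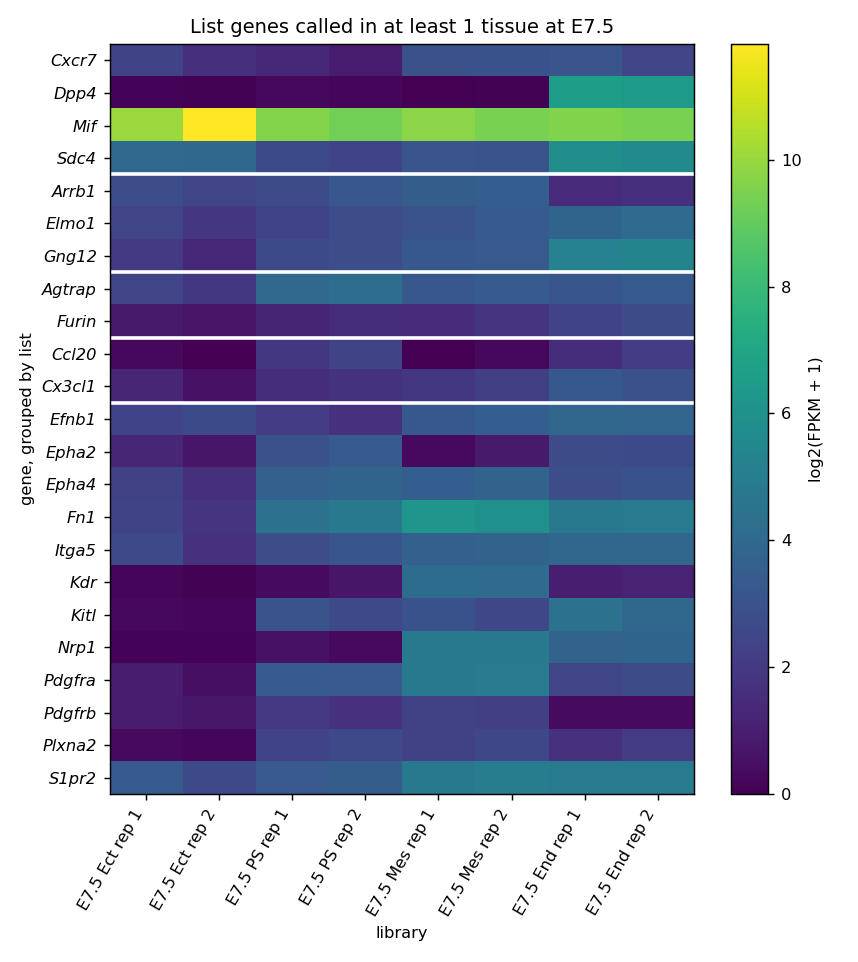
Levels of the 23 list genes called in at least 1 E7.5 tissue, as log2(FPKM+1) in each of the 8 libraries, in rows grouped by list (white lines). Kdr, Nrp1, Pdgfra and Fn1 are brightest in mesoderm, Dpp4 is seen in the 2 endoderm libraries, and ectoderm is dark for most rows but Mif.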

How the data were processed

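RNA-seq libraries were made with Smart-Seq2, per the labels' protocols. The submitters' processing notes name mm9, TopHat2 2.0.11 and Cufflinks 2.0.2, and the authors deposited FPKM in 3 tables. Values of 1e-06 or less were set to 0, and 27 symbols turned into dates were dropped. limma 3.58.1 in R 4.3.3 took log2(FPKM+1) as input and let the variance follow the mean level, over 15 groups in 1 fit (15 residual degrees of freedom). Fold changes cross no table, though the fit shares its spread between them. Tables were joined with pandas 2.3.3 and plotted with matplotlib 3.10.9. On simulated data limma called 11 to 29% of genes changed 2-fold and 64 to 90% of those changed 4-fold, over 14 comparisons of 13493 genes. Changes were simulated only in genes with a mean log2(FPKM+1) above 3, so these shares do not cover genes at lower levels. Members and lists were chosen with earlier results of these data known. Genes named were up to 4 called genes per list and comparison whose higher group averaged 5 FPKM or more, and the 5 most like each member. Alternatives were a pseudocount of 0.1, no filter, quantile normalization, a replicate block, smaller fits and each library left out.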

Additional observations from a re-analysis of the deposited data

How the results depend on the processing

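For the 40 tested differences of the 4 genes there were 432 alternative values. Of these, 418 stayed on their side of the threshold, 7 lost a call and 7 gained one. Direction was compared only for the 8 calls, of which 0 reversed. Some of the 40 differences were between groups listed at 0 in every library, such as Aplnr between E3.5 inner cell mass and trophectoderm. Those could only stay uncalled and are counted among the 418. Of the 8 calls, 7 held in every alternative run, and the other was Apln in visceral endoderm of E6.5 against E5.5. In that comparison the count of called members was 1, and it was 0 with no filter, with quantile normalization, with a replicate block and with only the groups compared, and 0 to 2 with a library left out. The replicate block gave Apln an adjusted p of 0.0555 and changed no other call of the 4 genes. No label ties libraries of the same number, and deviations of same-numbered libraries correlated from -0.268 to 0.438 over 57 pairs of groups, with 9 above 0.1, so the numbers were not taken as pairs. Among E7.5 primitive streak, mesoderm and endoderm all 3 correlations were above 0.1, from 0.202 to 0.364, and those with ectoderm were below 0.1. With a pseudocount of 0.1 the count was 2 in E5.5 visceral endoderm against E4.0 inner cell mass (1 otherwise) and 1 in E6.5 against E5.5 epiblast (0 otherwise), Aplnr being added in both. That pseudocount also added Aplnr in E5.5 epiblast against visceral endoderm. In E6.5 against E5.5 visceral endoderm it left the count at 1, with Cxcl12 called (limma adjusted p = 0.0222) in place of Apln. The count was also 1 for the epiblasts with only the libraries of the same table, where Apln was added. In cultured epiblast against visceral endoderm it was 1 to 2 with a library left out. The causes were not tested. Quantile normalization moved the median of all genes in E6.5 against E5.5 visceral endoderm from 0.50 to 0.05. The E7.5 differences, given with no test, moved by over 1 SD in 13 of 240 alternatives. In the authors' deposited table of tissue values, 43 of 44 member values lay within 1 SD of the replicate means; the exception was Aplnr in E5.5 visceral endoderm (0.867 against 0.697 FPKM). With 2 libraries a group and FPKM only, small differences of genes near 1 FPKM were not detectable.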
